A study of Dicentrarchus labrax with 10 samples.

Results

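The contigs described here were those whose array signal was higher in every gonad of European sea bass (Dicentrarchus labrax) reared warm in early life than in every gonad of fish reared cool. A contig is a transcript sequence assembled from overlapping cDNA reads, and the array carried 3305 of them among 11705 transcripts. The rule kept a contig when the lowest HTE2 value exceeded the highest LTE2 value and the group means differed by 0.8 log2 units or more. It was applied to the brightest probe of each contig, which had to be well above background in at least 50% of its spots on 5 or more of the 10 arrays and to average at most 6. Of 3305 contigs, 3160 passed the detection filter, 3099 also passed the limit on the mean, and 118 met the rule. The 118 were thus chosen on the same measurements that are given below, so their levels and differences are descriptions and carry no test.

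Both groups started at 17 °C. At 20 days post hatch (dph) the tank of the HTE2 group was warmed to 21 °C and the tank of the LTE2 group was cooled to 15 °C. The cool tank was raised to 21 °C from 60 dph, and both groups ate food carrying estradiol from 90 to 154 dph. At 170 dph the gonads of 5 putative females per group, as the labels call them, were sampled, and each fish had its own 1-colour Agilent array. Because each temperature was held in 1 tank, effects of tank and of temperature cannot be told apart. Fish without estradiol were not analysed here. The labels do not give the genotype of the fish. A gonad is a mixture of germ cells and supporting cells, so a higher signal per cell and a larger share of the cells that carry a transcript cannot be told apart.

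Sex in the European sea bass is set by many genes together with the temperature of early life, and warm early rearing is known to raise the share of males. In the developing fish ovary, aromatase turns androgens into estrogens, which act through estrogen receptors in supporting cells and germ cells to keep the ovarian programme running. Estradiol in the food supplies the hormone from outside and drives gonads toward an ovary. The comparison asks whether gonads feminised in this way still differ with the temperature of early life. The contigs carry assembly names only, none of which matched an identifier in the RefSeq annotation of the species, so no gene name, role or position in the genome is given for them, and the marker genes of gonadal cell types could not be checked.

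Values are log2 processed intensity minus the 75th percentile of the same array, so 0 is the 75th percentile of all non-control spots and 1 unit is a doubling. The probes differ in how brightly they hybridise, so values of different contigs are not ranked as abundance. The arrays themselves differed in brightness. Their 75th percentile of intensity ran from 632.6 to 1393 in HTE2, with a median of 818.7, and from 243.3 to 684.1 in LTE2, with a median of 587.8 (exact permutation test over 252 assignments, two-sided p = 0.0159). Each slide held 1 array of each group, HTE2 always at place 4 and LTE2 always at place 3, and the 2 effects cannot be told apart. The permutation test did not take the slide into account. Within slides 1 to 5 the HTE2 array was the brighter one by 1.68, 0.84, 0.67, 1.03 and 0.11 log2 units. The number of arrays limits the precision of every value.

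Over the 118 contigs the difference between the group means, HTE2 minus LTE2, ran from 0.80 to 2.68 log2 units, with a median of 1.18, equal to a 2.27-fold higher signal in HTE2. A difference of 2 units or more was found in 9 contigs, 69 lay between 1 and 2, and 40 lay under 1. Over all 3099 contigs the median difference was -0.13, and over all 9909 transcripts tested it was -0.27. Where 0 lies depends on the scaling. With the arrays scaled to added spike-in RNA, the median over all transcripts was 0.76. The rule took 3.81% of the 3099 contigs. Full separation of any size in that direction was found in 177 contigs, 5.71%, and the mirrored rule, fully lower in HTE2 by 0.8 or more, took 193 contigs, 6.23%. Full separation of any size downward was found in 253, 8.16%. Of 6724 cDNA clones on the same arrays, 193 (2.87%) met the upward rule. In the limma fit over all 9909 transcripts, all 118 were called higher in HTE2 at a Benjamini-Hochberg adjusted p under 0.05, where 10.8% of all transcripts and 13.8% of contigs were called higher. As the rule used the same contrast, nothing is read from that count.

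**Figure D1:**
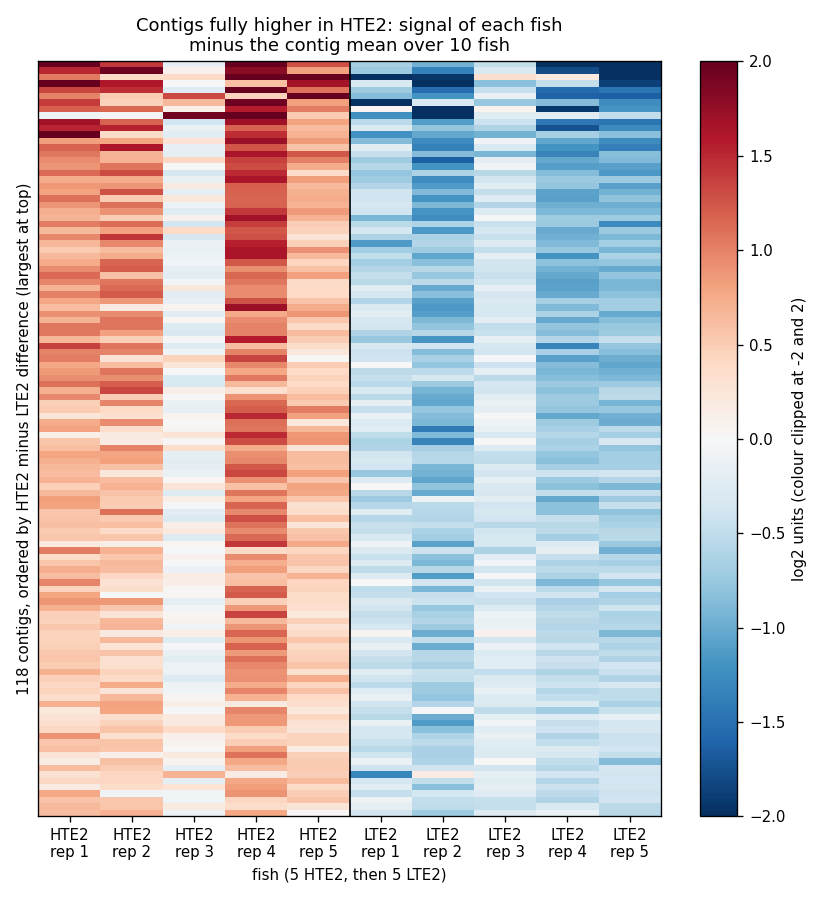
Heat map of the 118 contigs (rows, ordered by HTE2 minus LTE2 difference with the largest at the top) in 10 fish (columns, 5 HTE2 left of 5 LTE2), coloured by the log2 value minus the contig's mean over 10 fish. The 4 HTE2 fish other than replicate 3 are red almost throughout, HTE2 replicate 3 is pale, and among LTE2 fish replicate 3 is the palest.

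The contigs with the largest differences fell into 2 kinds. A few had a clear signal in both groups, and a larger number were not well above background on every LTE2 array. SeabassC-CL2286Contig1 was of the first kind. Its values were 3.50, 3.64, 1.91, 4.24 and 3.25 in HTE2 replicates 1 to 5, against 1.47, 0.65, 1.71, 0.61 and 0.71 in LTE2 replicates 1 to 5. The groups did not overlap, but HTE2 replicate 3 lay only 0.20 above LTE2 replicate 3. The means were 3.31 ± 0.86 in HTE2 and 1.03 ± 0.52 in LTE2 (SD, n = 5 each), a 4.85-fold difference, and the other 2 probes of SeabassC-CL2286Contig1 gave log2 differences of 2.22 and 2.15, neither fully separated.

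SeabassC-CL554Contig1 had -0.34, 0.09, -1.77, -0.04 and -1.02 in HTE2 and -2.58, -3.20, -2.16, -3.63 and -3.86 in LTE2. Again HTE2 replicate 3 was the lowest of its group and LTE2 replicate 3 the highest of the other, with a gap of 0.39. The means of SeabassC-CL554Contig1 were -0.61 ± 0.78 in HTE2 and -3.08 ± 0.71 in LTE2 (SD, n = 5 each), a 5.54-fold difference, and its other probes gave 2.59 and 2.46 log2 units, both fully separated. SeabassC-CL3114Contig1 had 1.19, 0.69, -0.86, 1.21 and 0.33 in HTE2 and -1.01, -1.60, -0.91, -1.91 and -1.94 in LTE2. Its groups were parted by 0.06 only, between the 2 arrays of replicate 3, while the other HTE2 fish lay well clear of every LTE2 fish. The means of SeabassC-CL3114Contig1 were 0.51 ± 0.85 in HTE2 and -1.48 ± 0.49 in LTE2 (SD, n = 5 each), and its 3 probes lay between 1.99 and 2.08.

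In the other 9 of the 12 largest differences, the LTE2 signal was not well above background on every array. SeabassC-CL4227Contig1 had the largest difference of the 118 on this scale, a rank that it lost to SeabassC-CL2286Contig1 under normexp with quantile normalization (1.17 against 2.19) and in the authors' deposited value table (1.09 against 2.20). Its values were -1.55, -2.11, -3.69, -1.34 and -2.24 in HTE2 and -4.19, -4.46, -4.02, -5.65 and -5.98 in LTE2. Every HTE2 array, but only 3 of 5 LTE2 arrays, showed it well above background. The means were -2.18 ± 0.92 in HTE2 and -4.86 ± 0.89 in LTE2 (SD, n = 5 each), and the 3 probes of SeabassC-CL4227Contig1 gave differences of 2.61 to 3.27 log2 units, each with full separation.

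SeabassC-CL4210Contig1 had the widest gap between the groups among the 118. Its HTE2 values were -2.64, -3.58, -3.39, -2.10 and -3.23, and its LTE2 values were -6.16, -4.35, -4.79, -4.92 and -5.28. The lowest HTE2 fish was replicate 2 and the highest LTE2 fish was also replicate 2, 0.77 apart. Its other probes gave 2.23 and 1.67 log2 units, and neither was fully separated. The chosen probe was well above background on 4 of 5 LTE2 arrays. SeabassC-CL757Contig1 had -3.78, -4.27, -3.44, -4.31 and -2.63 in HTE2 and -5.63, -5.96, -4.89, -6.38 and -6.40 in LTE2. Here HTE2 replicate 3 was the second highest of its group, unlike in the brighter contigs above, while LTE2 replicate 3 was again the highest LTE2 fish. The signal of SeabassC-CL757Contig1 was well above background on 1 of 5 LTE2 arrays, and its other probes gave 1.91, fully separated, and 1.84, not so.

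Of the 12, 5 rested on 1 probe with 1 spot per array. SeabassC-CL4057Contig1 had -2.55, -3.21, -3.20, -1.46 and -1.48 in HTE2 and -5.94, -5.53, -3.27, -3.40 and -5.86 in LTE2. Its LTE2 fish split, with replicates 3 and 4 just below the lowest HTE2 fish and the other 3 far lower, and its LTE2 SD of 1.35 was the largest among the 118. SeabassC-CL3921Contig1 ran from -3.66 to -1.57 in HTE2 and from -6.09 to -3.96 in LTE2. SeabassC-CL1577Contig1 ran from -4.21 to -2.77 in HTE2 and from -6.43 to -4.27 in LTE2, with groups 0.06 apart. SeabassC-CL4148Contig1 had -4.24, -4.17, -2.22, -1.45 and -3.63 in HTE2 and -5.37, -7.00, -4.39, -4.37 and -4.64 in LTE2, so that its HTE2 replicates 3 and 4 carried most of the difference of 2.01.

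SeabassC-CL3498Contig1 was the only one of the 118 that was well above background on no LTE2 array. Its values were -2.89, -4.86, -5.45, -3.76 and -4.54 in HTE2, all 5 well above background, and -6.44, -6.26, -6.17, -5.90 and -6.07 in LTE2. With no LTE2 array detected, the filter of 5 arrays could only be met by all 5 HTE2 arrays. As a floor, each LTE2 value was raised to the lowest signal that counted as well above background on its array, if below it. Against that floor the signal was 3.03-fold higher in HTE2. That lowest signal came from any probe on the array, so 3.03-fold is not a firm bound for this contig, which had 1 probe with 1 spot. The measured means of SeabassC-CL3498Contig1 were -4.30 ± 1.00 in HTE2 and -6.17 ± 0.20 in LTE2 (SD, n = 5 each). SeabassC-CL1760Contig1, with HTE2 values of -5.48 to -3.81 and LTE2 values of -7.10 to -5.66, was well above background on 1 LTE2 array, and its other 2 probes, which missed the detection filter, gave 1.98 and 1.96, neither fully separated.

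**Figure D2:**
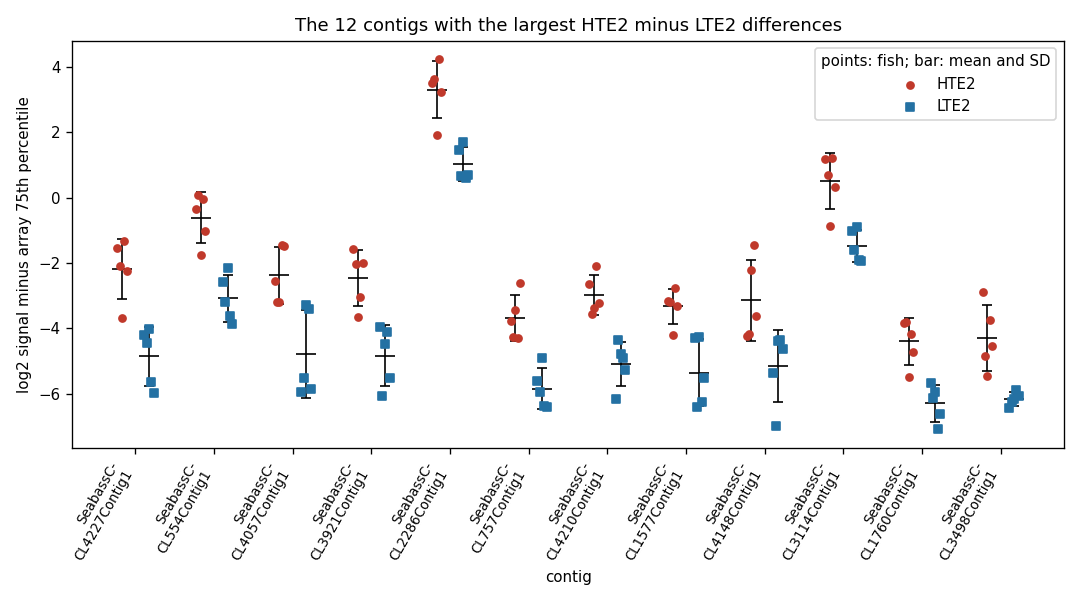
Values of each fish (points) with group mean and SD (bars) for the 12 contigs with the largest differences, on the log2 scale relative to the array's 75th percentile, HTE2 left of LTE2 for each contig. Only SeabassC-CL554Contig1, SeabassC-CL2286Contig1 and SeabassC-CL3114Contig1 were well above background on all 10 arrays.

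Across the whole set, all 118 contigs were well above background on every HTE2 array, and 107 were so on every LTE2 array too. The 11 that were not had differences of 0.84 to 2.68 with a median of 2.03, against 0.80 to 2.47 with a median of 1.15 in the 107. They also varied more between fish, with a median SD of 0.71 in HTE2 and 0.68 in LTE2, against 0.46 in HTE2 and 0.26 in LTE2 for the 107. Of the 11, 7 had a single probe on the array, against 16 of the 107. LTE2 arrays were the dimmer ones on every slide, and the part of that in these 11 differences was not tested. The dim differences were smaller with normexp background correction, an offset of 50 and quantile normalization together, where SeabassC-CL757Contig1 differed by 0.53 and SeabassC-CL1760Contig1 by 0.34, and the authors' deposited value table gave 0.53 and 0.36. Quantile normalization alone moved none of the 31 contigs named by the rules given below by as much as the pooled SD between fish. Normexp and the offset were not tested apart from each other.

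The contigs with the brightest probes had smaller and tighter differences. SeabassC-CL91Contig1 had 4.42, 4.41, 3.82, 4.78 and 4.64 in HTE2 and 3.67, 3.51, 3.76, 3.41 and 3.62 in LTE2. The LTE2 fish lay close together, with an SD of 0.14, and HTE2 replicate 3 stood 0.06 above the highest of them. The difference was 0.82 log2 units, or 1.77-fold, and the other probes of SeabassC-CL91Contig1 gave 0.77, not fully separated, and 0.83, fully separated. SeabassC-CL926Contig1 had 4.38, 4.19, 3.74, 4.83 and 4.44 in HTE2 and 3.35, 3.22, 3.62, 3.41 and 3.48 in LTE2, a 1.86-fold difference that its other probes gave as 0.91 and 0.92 on the log2 scale. In both contigs the top value was that of HTE2 replicate 4 and the smallest step between the groups lay at replicate 3.

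The remaining contigs with the brightest probes were SeabassC-CL359Contig1, SeabassC-CL202Contig1, SeabassC-CL497Contig1 and SeabassC-CL4161Contig1. SeabassC-CL359Contig1 had 3.88, 3.88, 2.89, 4.01 and 3.73 in HTE2 and 2.69, 2.53, 2.60, 2.32 and 2.39 in LTE2, so 4 HTE2 fish lay far above every LTE2 fish and replicate 3 lay just above. SeabassC-CL202Contig1 averaged 3.68 ± 0.31 in HTE2 and 2.81 ± 0.17 in LTE2, and SeabassC-CL497Contig1 averaged 3.17 ± 0.39 in HTE2 and 2.27 ± 0.14 in LTE2 (SD, n = 5 each). In SeabassC-CL202Contig1, unlike most of the 118, HTE2 replicate 4 at 3.43 was close to the lowest HTE2 fish.

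The 4 contigs with the smallest spread of slide differences were SeabassC-CL2472Contig1, SeabassC-CL679Contig1, SeabassC-CL603Contig1 and SeabassC-CL3600Contig1, with spans of 0.41, 0.66, 0.77 and 0.81 log2 units. Their mean differences, 0.81 to 0.86, were also near the lower limit of the set, and the spans were not scaled to the size of the difference. SeabassC-CL3600Contig1 had 2.13, 2.29, 2.12, 2.23 and 1.97 in HTE2 and 1.37, 0.89, 1.50, 1.30 and 1.38 in LTE2. Its HTE2 fish lay close together, with replicate 3 among them, and its HTE2 SD of 0.12 was the smallest of the 118. The differences on slides 1 to 5 were 0.76, 1.40, 0.62, 0.93 and 0.59, and the 3 probes of SeabassC-CL3600Contig1 gave 0.83 to 0.87. SeabassC-CL2472Contig1 had 1.07, 0.98, 0.60, 0.79 and 0.67 in HTE2 and 0.23, -0.09, -0.05, 0.11 and -0.12 in LTE2. Its 5 slide differences spanned only 0.41 log2 units, the least of the 118, against a median span of 1.63 over the set.

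SeabassC-CL603Contig1 had 0.38, 0.39, -0.10, 0.31 and 0.27 in HTE2 and -0.62, -0.70, -0.42, -0.67 and -0.61 in LTE2. Both groups were tight apart from replicate 3, which approached the other group from each side. SeabassC-CL647Contig1 and SeabassC-CL2447Contig1 combined full detection with wide gaps. SeabassC-CL647Contig1 had -1.59, -1.42, -1.83, -0.99 and -1.78 in HTE2 and -2.58, -3.38, -2.59, -3.25 and -2.98 in LTE2, with 0.75 between the groups, and its 3 probes, each fully separated, gave 1.44 to 1.62. SeabassC-CL2447Contig1 had 3.09, 2.96, 2.77, 3.52 and 3.11 in HTE2 and 2.09, 1.94, 2.18, 2.05 and 2.02 in LTE2. Its groups lay 0.59 apart, against an SD of 0.28 in HTE2 and 0.09 in LTE2. SeabassC-CL3871Contig1 also had a gap of 0.59, from 1 probe that was well above background on 3 of 5 LTE2 arrays.

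For most of the 118 the gap was small. Its median was 0.17 log2 units, 66 contigs had a gap under 0.2 and 7 had one of 0.5 or more. The median SD between fish was 0.47 in HTE2 and 0.28 in LTE2, and in 14 contigs the gap exceeded the larger of the contig's own group SDs. Spots of the same probe on the same array had a median SD of 0.06 over the 95 contigs whose probe was spotted in duplicate, and the other 23 had a single spot. Over all contigs with duplicate spots this SD was 0.07.

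The edge of the set was set by replicate 3. HTE2 replicate 3 was the lowest HTE2 fish in 105 of the 118 contigs (89.0%), LTE2 replicate 3 was the highest LTE2 fish in 78 (66.1%), and both held in 69. Over all 3099 contigs HTE2 replicate 3 was the lowest HTE2 fish in 28.8% and LTE2 replicate 3 the highest LTE2 fish in 18.9%. At the other end, HTE2 replicate 4 was the highest fish in 79 of the 118 (66.9%), and the highest HTE2 fish in 29.0% of all 3099 contigs. With the LTE2 mean of a contig set at 0% and the HTE2 mean at 100%, the median place of HTE2 replicates 1 to 5 was 108.0%, 106.9%, 46.9%, 138.8% and 96.6%. That of LTE2 replicates 1 to 5 was 11.9%, -18.0%, 24.1%, -10.5% and -9.7%. Among the 118, HTE2 replicate 3 thus lay about midway between the groups, while the other HTE2 fish lay near or past their group mean. The rule kept only contigs where HTE2 replicate 3 lay above every LTE2 fish, which raises its place, and the HTE2 mean includes that fish. On a scale from the LTE2 mean (0) to the mean of the other HTE2 fish (1), its median place was 0.41 in the 118. Over all 462 contigs with a difference of 0.8 or more, that median was 0.22.

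HTE2 replicate 3 also lay between the groups in the 193 contigs that were fully lower in HTE2. There HTE2 replicate 3 was the highest HTE2 fish in 132 (68.4%), with a median place of 59.3%, and HTE2 replicate 4 was again the farthest out, at 149.0%. Over all 3099 contigs HTE2 replicate 3 was the highest HTE2 fish in 39.3%, and HTE2 replicate 4 was the lowest in 39.2%. LTE2 replicate 3 was the lowest LTE2 fish in 71 of the 193 (36.8%), against 16.2% of all 3099 contigs. Both sets were chosen on these arrays, and the difference between them was not tested.

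A difference was taken within each slide, from the HTE2 and the LTE2 array with the same replicate number. Its median over the 118 contigs was 1.14, 1.41, 0.23, 1.76 and 1.21 log2 units on slides 1 to 5. The medians over all 3099 contigs were -0.10, -0.13, -0.01, -0.27 and -0.13. The rule fixes every one of these differences above 0 but not their size. On slide 3 it was under 0.8 in 113 of the 118 contigs and under 0.3 in 71, whereas on slide 4 it reached 0.8 or more in 114. Slide 3 gave the smallest of the 5 differences in 110 contigs and slide 4 the largest in 76. The log2 brightness of the HTE2 array exceeded that of the LTE2 array by 1.68, 0.84, 0.67, 1.03 and 0.11 on slides 1 to 5, and the part of brightness in the slide differences was not tested.

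**Figure D3:**
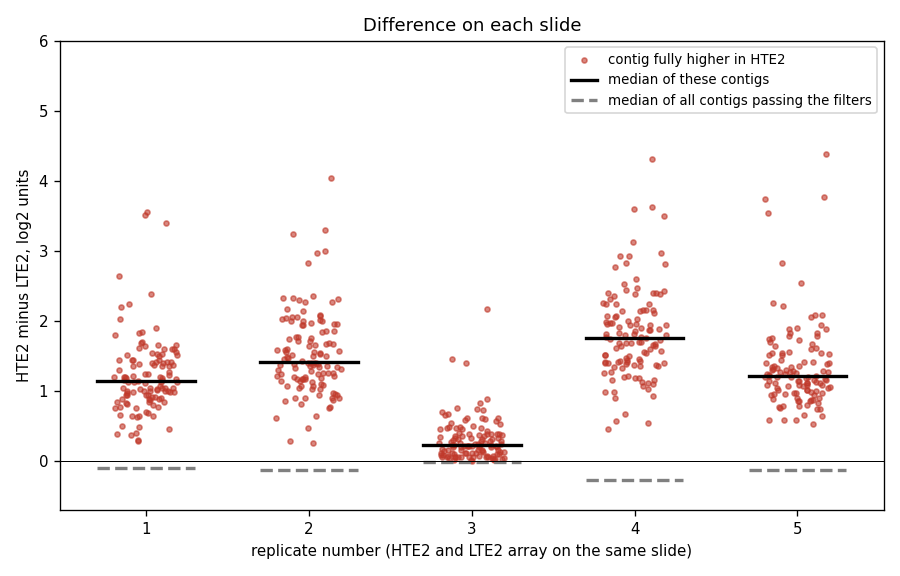
HTE2 minus LTE2 difference (log2 units) of each of the 118 contigs on slides 1 to 5 (points), with the median of these contigs (solid lines) and of all 3099 contigs (dashed lines). The solid lines lie at 1.14, 1.41, 0.23, 1.76 and 1.21.

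In a few contigs HTE2 replicate 3 lay closer to the other HTE2 fish than in most of the 118. They are named here after their values were seen. HTE2 replicate 3 lay above its group mean in 3 of the 118 contigs, SeabassC-CL4148Contig1, SeabassC-CL757Contig1 and SeabassC-CL3066Contig1. All were among the 11 contigs not well above background on every LTE2 array, though SeabassC-CL3066Contig1 was well above it on 4 of 5. SeabassC-CL3066Contig1 had -4.20, -4.09, -3.81, -4.34 and -4.02 in HTE2 and -5.81, -4.35, -4.70, -4.89 and -4.89 in LTE2, with 0.01 between the groups. Of the contigs that were well above background on every array, SeabassC-CL3600Contig1, SeabassC-CL879Contig1, SeabassC-CL3306Contig1 and SeabassC-CL286Contig1 had HTE2 replicate 3 nearest to the other HTE2 fish, at 0.96, 0.84, 0.81 and 0.76 of the way from the LTE2 mean to the mean of the other 4 HTE2 fish. SeabassC-CL286Contig1 had 0.36, 0.75, 0.12, 0.51 and 0.02 in HTE2 and -0.84, -0.90, -0.50, -0.86 and -1.03 in LTE2, a gap of 0.52. The median of that place over the 118 was 0.41, and it was under 0.5 in 80. Slide 3 still gave the smallest of the 5 differences in SeabassC-CL757Contig1, SeabassC-CL879Contig1 and SeabassC-CL286Contig1, at 1.46, 0.48 and 0.61. It did not in the other contigs named in this paragraph.

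Many more contigs shared the size of difference than the separation. Of 462 contigs with a difference of 0.8 or more, 118 were separated and 344 overlapped. Of the 344, 257 would have been separated without HTE2 replicate 3 and 105 without LTE2 replicate 3, against 34 without LTE2 replicate 1 and at most 10 without any one of the other 7 fish. With the whole rule applied to 9 fish, 443 contigs met it without HTE2 replicate 3 and 237 without LTE2 replicate 3. Without both arrays of that replicate it took 493, of which 114 were among the 118. HTE2 replicate 3 was the lowest HTE2 fish in 403 of the 462 (87.2%), close to its share among the 118.

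Members and non-members at the border had like values. SeabassC-CL501Contig1, SeabassC-CL4188Contig1 and SeabassC-CL679Contig1 were separated by 0.01 log2 units or less, and SeabassC-CL785Contig2, SeabassC-CL1094Contig1 and SeabassC-CL3048Contig1, with differences of 0.90, 1.03 and 0.91, overlapped by no more than that. On the other limit, SeabassC-CL4161Contig1, SeabassC-CL2472Contig1 and SeabassC-CL679Contig1 came in with differences of 0.80, 0.81 and 0.81, and the separated contigs SeabassC-CL2764Contig1, SeabassC-CL1162Contig1 and SeabassC-CL57Contig1 stayed out with 0.80, 0.80 and 0.79. SeabassC-CL57Contig1 averaged 1.56 ± 0.17 in HTE2 and 0.77 ± 0.17 in LTE2 (SD, n = 5 each), with a gap of 0.35 that was wider than the median gap of the members.

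Around their group means the 118 contigs moved together over the 10 fish. Both groups were pooled for this, so the values do not show the pattern in either group alone. After each group's mean was removed from every contig, 95.3% of pairs of the 118 varied in the same direction over the 10 fish (a correlation above 0), against 50.5% of pairs of all 3099 contigs and 83.8% among the 193 that were fully lower. The first principal component of these deviations took 57.8% of their variance in the 118, with weights of -0.69 for HTE2 replicate 3, 0.48 for HTE2 replicate 4 and 0.35 for LTE2 replicate 3. In all contigs it took 35.7%, with weights of -0.60, 0.72 and 0.26 for the same fish. All contigs share the same 10 arrays and their brightness, and the rule itself favours contigs of like shape, so these values are descriptions.

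Some pairs had nearly the same profile over the 10 fish, and they are named here after their values were seen. After each contig's mean was removed, SeabassC-CL359Contig1 and SeabassC-CL4347Contig1 differed by at most 0.08 log2 units in any fish, and SeabassC-CL1273Contig1 and SeabassC-CL2916Contig1 by at most 0.09. SeabassC-CL674Contig1 and SeabassC-CL573Contig1 were close even without that step, with at most 0.23 between their values. SeabassC-CL674Contig1 had 1.73, 2.21, 0.73, 2.11 and 1.63 in HTE2 and 0.54, 0.05, 0.46, -0.14 and -0.01 in LTE2. SeabassC-CL573Contig1 had 1.75, 1.98, 0.76, 2.05 and 1.57 in HTE2 and 0.54, -0.02, 0.29, -0.10 and -0.10 in LTE2. Whether their probes bind a shared sequence was not tested, as no probe sequences were used here.

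Only 3 of the 118 shared a CL number, the first part of the contig name, with another contig on the array. SeabassC-CL124Contig2 differed by 1.10 and SeabassC-CL124Contig1 by 1.05. SeabassC-CL430Contig1 differed by 1.02 and SeabassC-CL430Contig2 by 0.86. In both pairs the second contig overlapped between the groups. SeabassC-CL245Contig2 differed by 0.84, whereas SeabassC-CL245Contig1 stood at 1.77 in HTE2 and 1.89 in LTE2, a difference of -0.12.

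Other probes of the same contigs served as a check of the chosen probe. They measure the same RNA on the same arrays and are no separate evidence of a group difference. Of the 118 contigs, 94 had at least 1 other probe that passed the detection filter, 184 probes in all. In 93 of the 94 every such probe was higher in HTE2, in 79 every one differed by 0.8 or more, and in 55 every one was fully separated. The other probe lay within 0.2 log2 units of the chosen one in 159 of 184 cases, and the median absolute distance was 0.06. Full separation was therefore less stable across probes than the direction or the size, with 128 of the 184 probes separated.

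**Figure D4:**
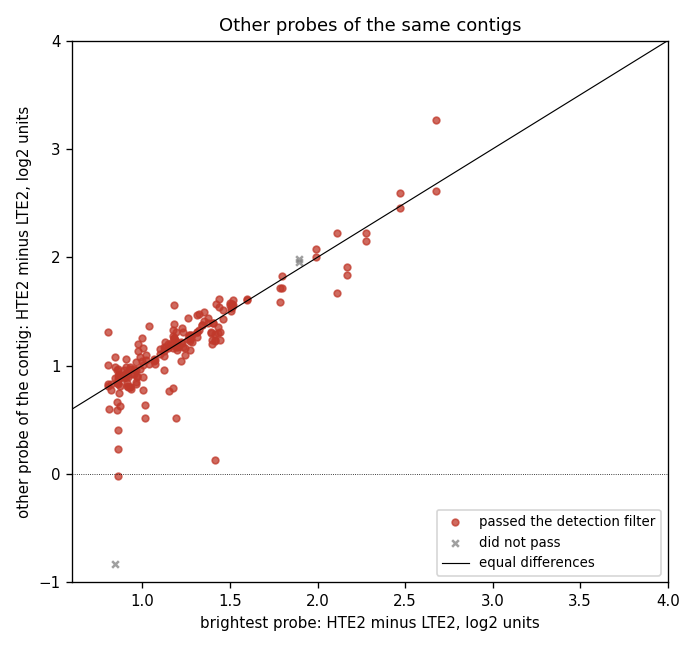
HTE2 minus LTE2 difference of each other probe (vertical axis) against that of the brightest probe of the same contig (horizontal axis), both in log2 units, with the line of equal differences. Of the 184 probes that passed the detection filter, 159 lie within 0.2 of the line in height, and 1 lies below 0.

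The probes disagreed most in 3 contigs with several detected probes. SeabassC-CL2008Contig1 had -1.61, -1.51, -2.37, -0.62 and -1.61 in HTE2 and -2.74, -3.29, -2.44, -3.44 and -2.88 in LTE2 at its brightest probe, a difference of 1.42. Its second probe gave 1.23 and its dimmest probe 0.13, with means of -4.00 in HTE2 and -4.13 in LTE2. The difference of SeabassC-CL443Contig1 was 0.86 at the brightest probe, 0.40 at the second and -0.02 at the dimmest, so its place among the 118 rested on 1 probe. SeabassC-CL1074Contig1 gave 1.19, 1.31 and 0.51. The 2 contigs with a probe near 0 had that value at their dimmest probe, while the probe of SeabassC-CL1074Contig1 that gave 0.51 was nearly as bright as the chosen one.

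How the arrays were scaled moved the values of the whole set. The arrays were also scaled to the added spike-in RNA in place of the 75th percentile. The median difference of all transcripts then moved to 0.76 and that of the 118 to 2.22. This scaling shifts every difference by the same amount, here upward, so none of the 118 could fall below 0. Full separation held in 26 of the 118 on that scale, and in 36 of all 3099 contigs, and the cause was not tested. In the authors' deposited value table all 118 differences were above 0, from 0.25 to 2.20 with a median of 0.95. There 105 of the 118 were separated, 84 differed by 0.8 or more and 76 met both limits. With normexp, the offset of 50 and quantile normalization together, the median was 0.94, 106 were separated, 83 differed by 0.8 or more and 76 met both. Median scaling and quantile normalization left 117 and 116 separated. Over all contigs, with the brightest probe chosen anew, 214 of 3080 were separated upward in the authors' deposited table and 197 of 3103 with normexp. The counts were 226 and 205 of 3099 with median scaling and quantile normalization. All these settings use the arrays on which the 118 were chosen, so the counts are descriptions. With array brightness as a covariate the median difference of the 118 was 1.16, but its median SE was 0.358 against 0.26 without the covariate. Only SeabassC-CL757Contig1 of the 118 then passed in the limma fit at an adjusted p under 0.05, where 6 of all 9909 transcripts were called higher. An unadjusted p under 0.05 was found in 112 of the 118. The share of all transcripts with such a p was not counted and the rule used the same contrast, so nothing is read from the 112. The HTE2 arrays were the brighter ones, and the part of brightness in these differences was not tested further.

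**Figure D5:**
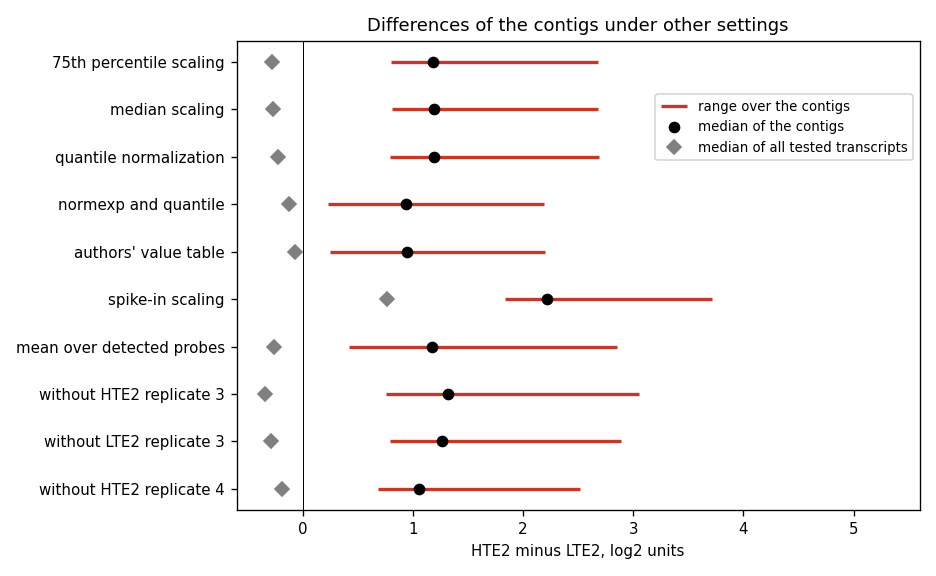
Range (lines) and median (circles) of the HTE2 minus LTE2 difference of the 118 contigs, and the median over all tested transcripts (diamonds), in log2 units, under 10 settings (rows). Every line lies above 0, and spike-in scaling moves both medians to the right, to 2.22 and 0.76.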

How the data were processed

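Each gonad was hybridised to its own 1-colour Agilent array. Processed intensity and the flags for signal well above background were deposited by the authors as scanner output of Agilent Feature Extraction 10.7.3.1, per the file headers. The authors' deposited value table holds log2 values for 21701 non-control probes, with column medians of 8.01 to 8.05; how it was normalized is not stated in those sources, and it served as an alternative. From the scanner files, processed intensity was put on the log2 scale and centred on the 75th percentile of the array's non-control spots, spots of a probe were averaged, and the brightest probe stood for a transcript. Differences were fitted with limma 3.58.1 in R 4.3.3 over 9909 transcripts (two-sided, Benjamini-Hochberg), after a check on simulated data. The contigs, the rule and the lists were chosen with earlier results of these data known. Named contigs were those with the 12 largest differences, the 6 highest means, the 4 widest gaps, the 4 most even slide differences, 3 on each side of the 0.8 limit, and those whose probes disagreed most; others are said to be chosen after their values were seen. Alternatives covered scaling, background correction, detection, probe choice, covariates and leaving out each fish. Nothing in the labels goes beyond separate fish of 1 tank per temperature, so p-values measure only the spread between these fish. Control spots were left out. No probe sequences were used here.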

Additional observations from a re-analysis of the deposited data

Results flagged for a closer look

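In groups of 5 fish or arrays, 66 sets of values were screened for 1 value far from the other 4, and 4 stood out; chance alone picks about 1 in 20. HTE2 replicate 3 was the lowest of its group by far in SeabassC-CL359Contig1, at 2.889 with the next fish at 3.728. The same fish stood apart in SeabassC-CL603Contig1, at -0.101 with the next at 0.272, and in SeabassC-CL679Contig1, at 1.782 with the next at 2.304. The array of LTE2 replicate 1 was the dimmest, with a log2 75th percentile of intensity of 7.927, where the next LTE2 array had 9.004.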

How the results depend on the processing

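The rule took 118 contigs, and most other settings left that count within 1.5 times, though not always with the same contigs. Of the 98 contigs taken with normexp and quantile normalization, 73 were among the 118, as were 73 of the 98 in the authors' deposited table. With the mean over detected probes the rule took 124, of which 100 were among the 118. It took 36 contigs with spike-in scaling, 78 with a difference of at least 1 and 493 without both arrays of replicate 3. Leaving out 1 fish at a time gave 103 to 443 contigs, the highest without HTE2 replicate 3, and 237 without LTE2 replicate 3. The median difference of the 118 was 2.215 with spike-in scaling and 1.06 to 1.32 when 1 fish was left out. All 118 were called higher by limma, and 100 to 117 when 1 fish was left out. Of all 9909 transcripts, 513 to 1549 were called higher in those fits with 1 fish left out. With array brightness as a covariate 1 of the 118 was called, in a fit that called 6 transcripts higher and 50 lower in all. As the rule used the same contrast, nothing is read from the counts of the 118. Deviations of same-numbered fish correlated at 0.384, 0.286, -0.27, 0.043 and 0.148. The labels do not say whether the numbers pair fish, and these few values of mixed sign cannot decide it. With the slide as a replicate block 101 of the 118 were called. In all, 574 transcripts were then called higher and 901 lower, against 1073 higher and 1455 lower without that block. The split of calls was 1222 higher and 16 lower with spike-in scaling, and 1224 higher and 1112 lower in the authors' deposited table. Of 579 alternative values of 31 named contigs, 519 moved by less than the pooled SD between fish, 60 moved further and 0 changed sign. All 31 were fully separated, so leaving out fish could not change a sign. Spike-in scaling and median scaling each shifted all contigs upward by the same amount, so they could not change a sign either. Requiring detection on all 10 arrays left the values as they were. The larger moves came from spike-in scaling (29 of 31, all by the same shift) and the authors' deposited table (15 of 31). Others came from normexp with quantile normalization (14 of 31) and the mean over detected probes (2 of 31). Signal near background limits the 11 dim contigs, and 10 arrays limit all values.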
